A study of Homo sapiens with 9 samples.

Results

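Messenger RNA of 8 genes that are recurrently altered in prostate cancer was followed in cells labelled 22Rv1, with and without knockdown of SSX2, a cancer-testis antigen. The genes were RB1, CDKN1B, ERG, ETV1, MYC, SPOP, CHD1 and BRCA2, and each was represented by its brightest transcript named for that gene alone. The array annotation gave such a transcript for 7 of the 8, out of 22465 genes named in this way, and each of the 7 had exactly 1. BRCA2 was not analysed here. The 22Rv1 line is an established human prostate cancer cell line. SSX2 knockdown cells (KD) were transfected by lipofectamine with a plasmid encoding an shRNA against SSX2, scramble control cells (SCR) received a scramble shRNA, and neomycin was kept in the medium of both. The wildtype group (WT) is the same line left untransfected. RNA of each of the 3 groups went onto 3 whole-transcript Affymetrix arrays (Human Transcriptome Array 2.0), which the labels call technical replicates, so every p-value below measures only that technical spread. The sources used here do not say whether a transfected line was 1 clone.

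These genes sit in distinct control circuits of the prostate epithelial cell. RB1 encodes the retinoblastoma protein, which holds E2F transcription factors inactive until cyclin-dependent kinases phosphorylate it, and CDKN1B encodes p27, which inhibits those kinases. ERG and ETV1 are ETS transcription factors that prostate tumours often place under androgen-driven promoters such as that of TMPRSS2. MYC drives growth and ribosome production, SPOP selects substrates for a CUL3 ubiquitin ligase, and CHD1 is a chromatin remodeller lost in a subset of prostate tumours.

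Levels were log2 intensities after RMA normalization by the authors. The medians of the background probe sets lay between 3.60 and 3.81 over the arrays, but the brightest such set on each array reached 11.93 to 12.30. These medians therefore do not set a floor of detection. Levels near 4 are called near background only in that they stood close to these medians. The labels give an average RNA integrity number of 2.5, which is low on its usual scale. The brighter of the SSX2 transcripts, shared with the gene copy SSX2B, was measured at 5.19, 5.06 and 5.14 in KD, at 11.94 on each SCR array, and between 11.89 and 11.98 in WT. The KD arrays stood apart from the controls across all transcripts, with r from 0.956 to 0.961 against the controls, compared with 0.995 to 0.996 between SCR and WT. Markers of the labelled cell type were lower in KD. Of 10 measured luminal prostate markers 7 were lower in KD than in SCR and 0 higher, including the kallikreins KLK2 (log2 difference -3.91, adjusted p = 6.73e-07) and KLK4 (-3.82, adjusted p = 3.72e-07), and their median difference was -2.03. The mean level of the list was 6.80 to 6.90 on the KD arrays, 8.62 to 8.67 in SCR and 8.43 to 8.47 in WT. The epithelial keratins KRT8 and KRT18 differed by 0.08 and 0.10, neither past the test, while TRPM8 stood near background in all groups. Of 17 markers of non-luminal prostate cancer lines 15 were higher in KD and 0 lower (median 3.51). This list was chosen with earlier results of these data known and includes genes that the paper reports as higher in KD. Its count is therefore not independent evidence on what the KD cells are. The mean level of that list was 9.36 to 9.38 in KD, 5.91 to 5.92 in SCR and 5.83 to 5.91 in WT. ANXA2, an annexin, differed by 6.35 (adjusted p = 2.16e-11) and MYOF, a membrane repair protein, by 6.03 (adjusted p = 7.53e-12). The labels name 22Rv1 for all 3 groups. The paper states that its cell lines were tested for identity by an outside company, and does not say whether this covered the transfected lines. Whether the KD cells are 22Rv1 cannot be settled from these arrays, so each difference between KD and a control below is one between the cells so labelled. The part of these marker shifts in the results below was not tested, and in bulk RNA fewer cells of a type and less RNA per cell cannot be told apart. Of 7 fibroblast markers 1 was lower in KD (LUM, -1.14, adjusted p = 0.0095) and 0 higher, and the collagen-binding DCN stood at 3.17 to 3.40 in all groups. LUM no longer passed when any 1 array of KD or of SCR was dropped (adjusted p 0.0651 to 0.161). Of 6 leukocyte markers 1 was higher (CD68, 2.19, adjusted p = 4.81e-06), while PTPRC, which marks all leukocytes, stood at 3.06 to 3.10. Called shares were 14.3% of fibroblast and 16.7% of leukocyte markers, against 15.4% of all named genes.

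CDKN1B and ETV1 were the members that passed the test, which was limma with a Bonferroni adjustment over 67528 transcripts and a threshold of 0.05. Both were lower in KD than in SCR and lower in KD than in WT. Thus 2 of 7 members were lower in KD than in SCR and 0 higher, where 15.4% of all named genes passed in either direction, 7.6% lower and 7.78% higher. Against WT, 2 of 7 were lower and 0 higher, where 15.3% of named genes passed, 7.45% lower and 7.83% higher. These shares include dim genes, while RB1, MYC, SPOP, CDKN1B and CHD1 stood at percentiles 82.7 to 96.3 of level among named genes. The share among genes of like level is not given here, so these counts do not set the members apart. The members' median difference from SCR was -0.21, and that of all named genes was -0.06. Groups whose arrays did not overlap were common on these chips. KD and SCR did not overlap in 6 of 7 members and in 65.3% of named genes, and KD and WT in 6 of 7 members and in 62.3%. ERG was the member whose groups overlapped. The comparisons of KD with SCR and with WT share the KD arrays. CDKN1B and ETV1 also passed against SCR under the methods' ANOVA with Bonferroni adjustment (adjusted p = 0.039 and 0.00548). Against WT, ETV1 passed that ANOVA and CDKN1B did not. Under that test, the genes named from the lists that passed in KD against SCR were CCND1, LEF1, FOXA1, CD68, ANXA2 and MYOF, and no named neighbour of a member did.

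**Figure D1:**
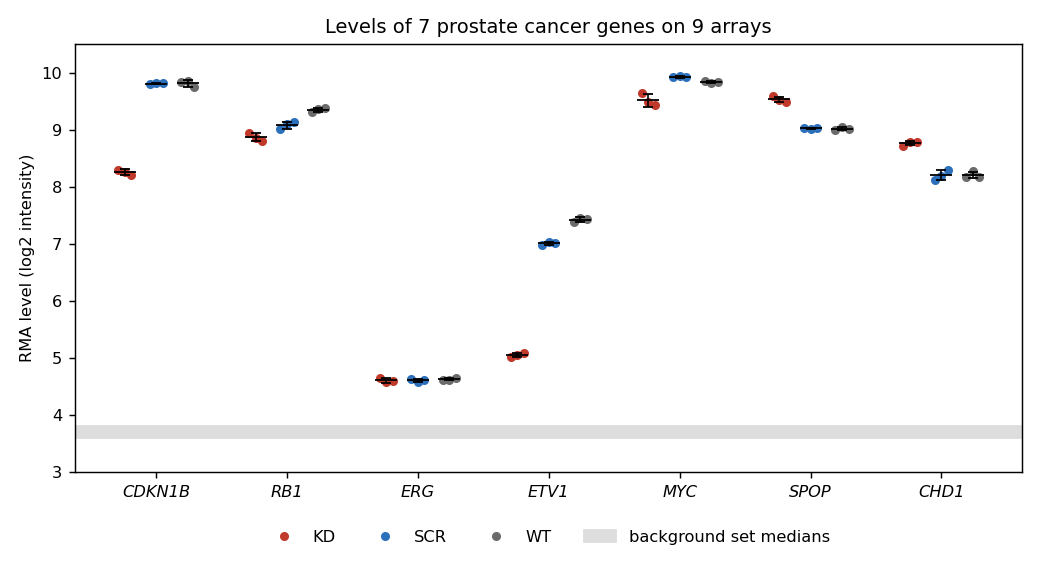
Level of each member on each of the 9 arrays, in log2 intensity after RMA, with points for single arrays and bars for the group mean ± SD. KD is far below SCR and WT for CDKN1B (8.26 against 9.81) and ETV1 (5.05 against 7.01 in SCR). ERG sits near 4.6 in every group, above the grey band of background set medians, which is not a floor of detection.

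The promoters of CDKN1B and ETV1 are shown because these were the members whose RNA passed the test. The sequences are from RefSeq (GRCh38.p14), run 5′ to 3′ on the strand of the gene and cover 250 bases before to 50 after an annotated start. The CDKN1B window is chr12:12717118-12717417 on the plus strand. The ETV1 window is the outermost of 6 annotated starts, chr7:13991376-13991675 on the minus strand, and the arrays do not tell which start was used. Capitals mark an E-box (CACGTG), an ETS core (CCGGAA), a GC box (GGGCGG) or a CCAAT box (CCAAT), on either strand and with overlapping matches counted.
CDKN1B: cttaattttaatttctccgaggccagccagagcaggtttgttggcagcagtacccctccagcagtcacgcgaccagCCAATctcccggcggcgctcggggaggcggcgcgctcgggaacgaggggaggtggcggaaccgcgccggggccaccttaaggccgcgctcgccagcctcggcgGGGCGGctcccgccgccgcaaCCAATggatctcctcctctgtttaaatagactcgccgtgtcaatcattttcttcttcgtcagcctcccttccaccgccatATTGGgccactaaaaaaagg
ETV1: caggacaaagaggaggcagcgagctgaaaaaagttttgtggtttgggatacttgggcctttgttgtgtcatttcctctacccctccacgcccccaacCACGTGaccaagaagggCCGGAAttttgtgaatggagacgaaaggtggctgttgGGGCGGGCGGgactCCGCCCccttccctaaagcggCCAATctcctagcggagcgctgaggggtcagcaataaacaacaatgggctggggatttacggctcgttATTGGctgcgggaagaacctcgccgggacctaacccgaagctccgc
The CDKN1B window holds 1 GC box and 3 CCAAT boxes, with 0 E-boxes and 0 ETS cores. The ETV1 window holds 1 E-box, 1 ETS core, 3 GC boxes, of which a pair overlaps, and 2 CCAAT boxes. Among 35116 RefSeq promoter windows of 300 bases, 7.26% hold this E-box, 17.2% the ETS core, 45% the GC box and 34.6% the CCAAT box. These matches describe the letters and do not show that a factor binds there.

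CDKN1B, the gene of the kinase inhibitor p27 on chromosome 12, was measured at 8.30, 8.26 and 8.21 in KD, at 9.80, 9.82 and 9.81 in SCR, and at 9.83, 9.86 and 9.74 in WT. All 3 KD arrays lay below every control array, and the controls overlapped each other. KD was lower than SCR by a log2 difference of -1.55 ± 0.05 (SE, 95% interval -1.66 to -1.44), or 2.93-fold, with an adjusted p of 6.04e-06 by limma. The difference from WT was also -1.55 (adjusted p = 5.92e-06). Among all named genes, 1.74% were as far below SCR or further. SCR and WT differed by -0.003 (95% interval -0.11 to 0.11).

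Its network list holds its paralogues, its degradation machinery and FOXO factors that transcribe it, and its median difference from SCR was -0.04. Of its 14 measured genes, 1 was lower in KD and 0 higher (7.14% called, against 15.4% of all named genes). With Benjamini-Hochberg adjustment 4 were higher and 4 lower. That gene was CDKN1A, which encodes the related inhibitor p21 (-0.77 ± 0.06, SE, adjusted p = 0.0102). Its call was lost when KD1, KD3 or any 1 of the SCR arrays was left out (adjusted p 0.0589 to 0.122). SKP2, the F-box protein that marks p27 for degradation, was at 10.05, 10.26 and 10.28 in KD and at 9.68, 9.64 and 9.66 in SCR. These arrays did not overlap, but the difference of 0.53 did not pass (adjusted p = 0.857).

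Several neighbours of CDKN1B on chromosome 12 were lower as well. Of the 3 measured genes on either side in RefSeq gene order, 3 of 6 were lower in KD than in SCR and 0 higher. DUSP16, a phosphatase of MAP kinases, was at 6.97, 7.11 and 6.87 in KD and at 9.10, 9.13 and 9.09 in SCR (-2.12, adjusted p = 2.35e-06). CREBL2, a leucine zipper protein, was at 7.46, 7.40 and 7.44 in KD and at 9.05, 9.13 and 9.06 in SCR (-1.65, adjusted p = 1.49e-06). APOLD1 was lower by a log2 difference of -0.95 (adjusted p = 0.00527), and this call was lost without KD1, KD2, KD3, SCR1 or SCR2 (adjusted p 0.0516 to 0.0708). DDX47, an RNA helicase on the far side, differed by 0.19, and this did not pass. A wider window was examined after the data had been seen. Among the 50 nearest genes with a mean level of at least 7, 25 on each side, 19 were lower in KD than in SCR and 2 higher, with a median of -0.44. The 543 such genes of chromosome 12 had a median of -0.27, and the 9732 such genes of the genome -0.05. The share of those 9732 genes that passed is not given here. Among all named genes, dimmer ones included, 7.6% were lower and 7.78% higher. The counts of this and the other 50-gene windows therefore have no matched share beside them. SCR and WT differed in the same window by a median of 0.01. The sources used here name no genome build for the array annotation, so only gene order was used.

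**Figure D2:**
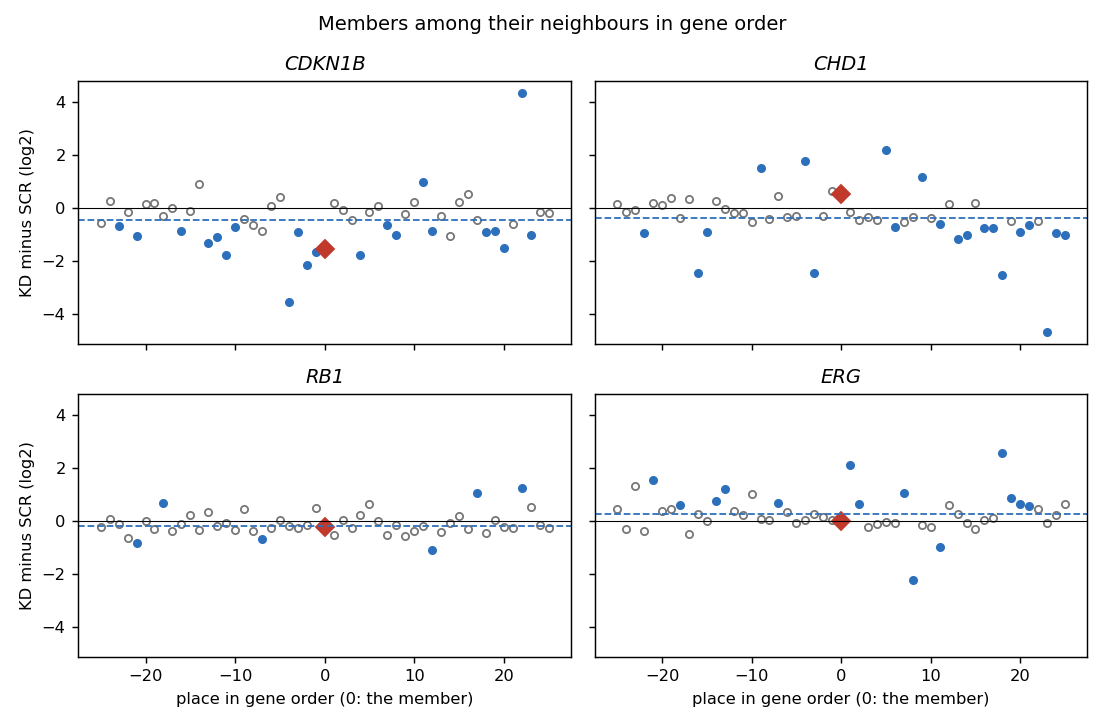
Difference between KD and SCR (log2) for the 25 genes of mean level 7 or more on either side of CDKN1B, CHD1, RB1 and ERG, by place in RefSeq gene order, with the member as a red diamond, filled points for genes past the test and the dashed line at the window median. The window of CDKN1B has 19 lower and 2 higher genes, that of CHD1 16 lower and 4 higher around a member that is itself 0.56 above SCR, and that of ERG 12 higher and 2 lower. The window of RB1 has 3 higher and 3 lower. Windows not drawn have 5 higher and 5 lower for ETV1, 5 and 5 for MYC, and 6 and 4 for SPOP.

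RB1 on chromosome 13, the brake on E2F, was expressed in all groups. It was measured at 8.95, 8.86 and 8.80 in KD, at 9.00, 9.09 and 9.13 in SCR, and at 9.30, 9.36 and 9.38 in WT. The groups followed one another without overlap, with KD lowest and WT highest. None of the steps passed the test. KD differed from SCR by -0.21 ± 0.06 (SE, 95% interval -0.33 to -0.08, adjusted p = 1) and from WT by -0.48 (95% interval -0.60 to -0.35, adjusted p = 0.736), and SCR differed from WT by -0.27 (95% interval -0.40 to -0.14, adjusted p = 1). The step between the controls was thus of the same order as that between KD and SCR. RCBTB2, a neighbour downstream of RB1, was lower in KD than in SCR (-0.87, adjusted p = 0.00112) and was the 1 of 6 nearest measured genes to pass. LPAR6, whose gene lies within an RB1 intron, stood at 3.48 to 3.52 in all groups, near background. The 50-gene window had a median of -0.17, with 3 genes higher and 3 lower, against a median of -0.11 for the 147 such genes of chromosome 13.

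The genes around RB1 in the cell cycle moved both ways. Of 23 measured genes of the RB and E2F core, 2 were higher in KD than in SCR and 5 lower, with a median of -0.17. The called share was 30.4%, against 15.4% of all named genes. The cyclin CCND1, which activates the kinases that phosphorylate the RB1 protein, was at 10.67, 10.74 and 10.68 in KD and between 12.43 and 12.46 in SCR, a difference of -1.75 ± 0.05 (SE, adjusted p = 8.78e-07). E2F2, an activating E2F factor, was lower by a log2 difference of -1.03 (adjusted p = 0.000199). The cyclin CCNE1 was higher by 0.82 (adjusted p = 0.0034), although not without KD1 (adjusted p = 0.0521). Against WT, 1 gene of the list was higher and 4 lower. E2F3 was higher than in SCR by 0.75 (adjusted p = 0.0315), a call lost without any 1 array other than KD1 (adjusted p 0.0504 to 0.35).

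Of 20 measured genes that E2F factors drive in DNA replication, 5 were higher in KD than in SCR and 2 lower, with a median of 0.11. The called share was 35%, against 15.4% of all named genes. Against WT 5 were also higher and 2 lower, but the median was -0.05, and that of SCR minus WT was -0.09. Array means of the list were 9.33 to 9.47 in KD, 9.31 to 9.34 in SCR and 9.40 to 9.45 in WT. MYBL2, a transcription factor of late cell cycle genes, was at 10.56, 10.65 and 10.58 in KD and between 9.70 and 9.71 in SCR (0.89, adjusted p = 0.000484). TK1, a nucleotide salvage kinase, was higher by 0.94 (adjusted p = 0.0051). The helicase subunit MCM7 differed by -0.69 (adjusted p = 0.0225) and the sliding clamp PCNA by -0.62 (adjusted p = 0.0141). Of these calls, TK1 was lost without KD3 or any 1 SCR array (adjusted p 0.0504 to 0.0665), MCM7 without any 1 array other than KD1 (0.0922 to 0.265), and PCNA without any 1 of the 9 arrays (0.0533 to 0.169). Leaving out 1 array at a time gave 3 to 6 called genes in this list, of which 3 to 5 were higher, and 1 was lower without KD1 and 0 without any other array.

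ETV1 on chromosome 7 was the member with the widest gap. This ETS factor was measured at 5.03, 5.05 and 5.08 in KD, at 6.98, 7.03 and 7.01 in SCR, and at 7.38, 7.46 and 7.44 in WT. All KD arrays lay below the SCR arrays, and all SCR arrays below the WT arrays. KD was lower than SCR by a log2 difference of -1.96 ± 0.05 (SE, 95% interval -2.06 to -1.85), or 3.88-fold, with an adjusted p of 2.96e-07. Against WT the difference was -2.37 ± 0.05 (95% interval -2.47 to -2.27), or 5.18-fold (adjusted p = 4.88e-08). The difference of SCR from WT was -0.42 (95% interval -0.52 to -0.32), which did not pass (adjusted p = 0.355). Of all named genes, 1.08% were as far below SCR or further. By limma 0 of the 6 nearest measured genes passed against SCR (3 at an unadjusted p under 0.05, 2 with Benjamini-Hochberg adjustment), and their differences ranged from -0.57 to 0.20. The 50-gene window around ETV1 had a median of -0.06, with 5 genes higher and 5 lower. The 477 such genes of chromosome 7 had a median of -0.17.

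ERG on chromosome 21, the ETS factor most often rearranged in prostate tumours, was low in every group. It was measured at 4.65, 4.58 and 4.60 in KD, at 4.63, 4.59 and 4.62 in SCR, and at 4.62, 4.63 and 4.66 in WT. All groups overlapped. The difference between KD and SCR was -0.002 (95% interval -0.10 to 0.10), and that between KD and WT -0.02 (95% interval -0.12 to 0.07).

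The interval between ERG and TMPRSS2, which is deleted in many tumours that fuse these genes, was measured in all groups. Of its 16 measured genes, 3 were higher in KD than in SCR and 1 lower (25% called, against 15.4% of all named genes). Their median was -0.08. ETS2, an ETS factor within the interval, was at 10.22, 10.17 and 10.06 in KD, at 8.07, 7.99 and 7.96 in SCR and between 8.30 and 8.31 in WT (2.14 above SCR, adjusted p = 7.8e-07). BACE2, a membrane protease, was 1.08 above SCR (adjusted p = 0.000106), and DSCAM, a neuronal adhesion molecule, differed by -0.99 (adjusted p = 0.000549). PSMG1, a proteasome assembly chaperone, was higher by 0.66 (adjusted p = 0.00483), a call lost without KD3 or any 1 SCR array (adjusted p 0.06 to 0.074). In the 50-gene window around ERG 12 genes were higher and 2 lower, with a median of 0.26. The 105 such genes of chromosome 21 had a median of 0.17.

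ETS factors that share the DNA-binding domain of ERG and ETV1 moved in both directions. Of 25 measured, 4 were higher in KD than in SCR and 4 lower (32% called, against 15.4% of all named genes). Their median was -0.09. Against WT 4 were higher and 2 lower. ETS1 was at 6.88, 6.67 and 6.76 in KD and between 4.53 and 4.60 in SCR (2.22, adjusted p = 2.17e-06). The epithelial ETS factor EHF was at 4.84, 4.95 and 4.66 in KD and between 7.83 and 7.88 in SCR (-3.04, adjusted p = 3.3e-07). SPDEF, also known as prostate-derived ETS factor, was at 7.21 or below on the KD arrays and between 9.96 and 10.07 in SCR (-2.93, adjusted p = 2.84e-07). The other calls, named after their values were seen, were ELK3 and ETV5, which were higher, and ELF5 and FEV, which were lower. ETV5, of the same subfamily as ETV1, was at 8.40, 8.15 and 8.11 in KD and between 6.66 and 6.68 in SCR (1.54, adjusted p = 0.000339). It was therefore higher in the group where ETV1 was lower. ETV4, the third of that subfamily, was 0.60 above SCR and did not pass (adjusted p = 0.169). ELF5 also separated the controls, at 7.18, 7.22 and 7.31 in SCR and at 5.43, 5.33 and 5.41 in WT (1.84, adjusted p = 2.23e-05), and was the 1 gene of the list to do so. Against WT, ELF5 in KD differed by -0.67, which did not pass (adjusted p = 0.193). FEV (-1.28, adjusted p = 0.0212) lost its call without any 1 array other than KD2 (adjusted p 0.0609 to 0.231).

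**Figure D3:**
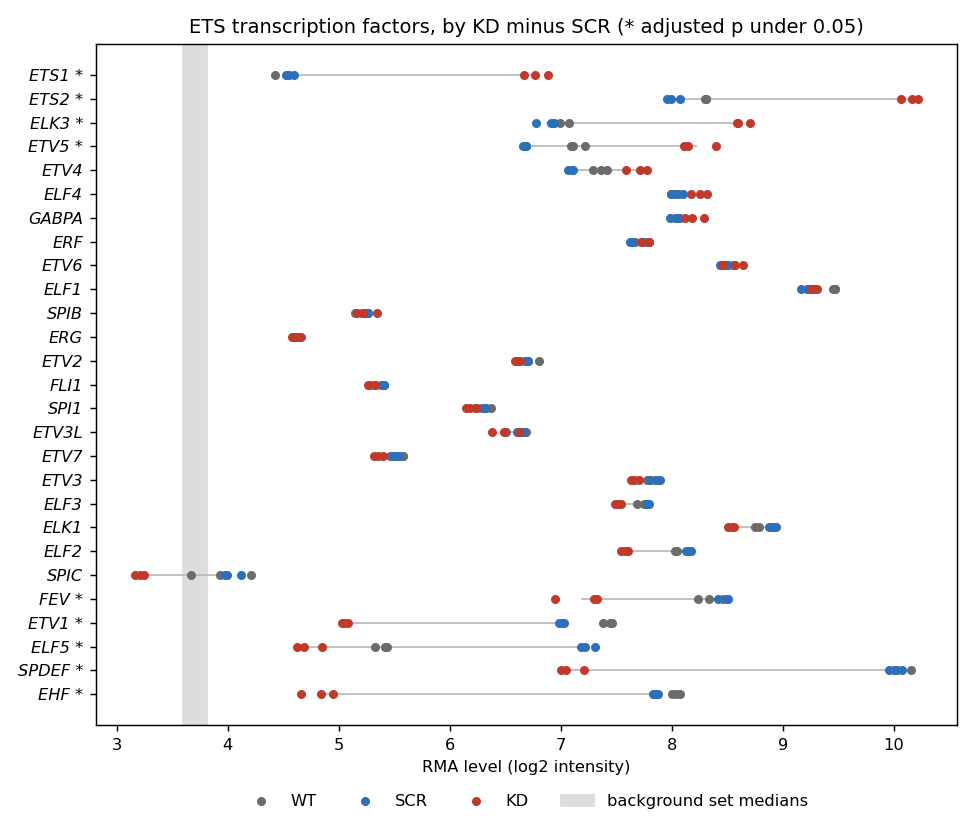
Levels of ERG, ETV1 and 25 other ETS factors on the 9 arrays (log2 intensity after RMA), in order of the difference between KD and SCR, with a line joining the KD and SCR means, stars for genes past the test and a grey band for the background set medians. ETS1, ETS2, ELK3 and ETV5 lie to the right in KD, and FEV, ETV1, ELF5, SPDEF and EHF to the left.

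Genes whose promoters are fused to ETS genes in prostate tumours were lower in KD or did not pass. Of 7 measured, 3 were lower than in SCR and 0 higher (42.9% called, against 15.4% of all named genes). Their median was -0.54. TMPRSS2, an androgen-driven protease gene, was at 6.27, 6.51 and 6.30 in KD and at 8.67, 8.59 and 8.51 in SCR (-2.23, adjusted p = 7e-06). KLK2, described above, was the lowest of the list. The median difference from SCR of 13 genes known to be high in tumours with rearranged ERG was -0.11. Among these, 1 was higher and 4 lower (38.5% called, against 15.4% of all named genes). They included LEF1, a WNT pathway transcription factor, at 5.07 to 5.08 in KD and 7.20 to 7.22 in SCR (-2.14, adjusted p = 5.44e-08), GHR, the growth hormone receptor (-0.98, adjusted p = 0.000224), and AMPD3, an AMP deaminase (0.80, adjusted p = 0.00202).

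MYC on chromosome 8 was expressed in all groups, with the lowest values in KD. It was measured at 9.64, 9.48 and 9.43 in KD, at 9.92, 9.94 and 9.92 in SCR, and at 9.85, 9.82 and 9.83 in WT. The 3 groups did not overlap, with SCR highest. KD differed from SCR by -0.41 ± 0.06 (SE, 95% interval -0.54 to -0.28, adjusted p = 1), and from WT by -0.32 (95% interval -0.45 to -0.19, adjusted p = 1), neither past the test. The spread in KD (SD 0.11) was wider than in SCR or WT (SD 0.014 in each). By limma 0 of its 6 nearest measured genes passed (4 at an unadjusted p under 0.05, 4 with Benjamini-Hochberg adjustment), and their differences from SCR ranged from -0.53 to 0.72. The 50-gene window around MYC had a median of 0.02, with 5 genes higher and 5 lower.

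Of 11 measured genes of the MYC and MAX network, 1 was lower in KD than in SCR and 0 higher, with a median of -0.27. The called share was 9.09%, against 15.4% of all named genes, and with Benjamini-Hochberg adjustment 6 were lower and 0 higher. That gene was MLXIP, a glucose-responsive partner of MLX (-0.79, adjusted p = 0.0105), whose call was lost without KD2, WT2 or any 1 SCR array (adjusted p 0.0531 to 0.129). Of 23 measured MYC targets in growth and ribosome production, 8.7% were called, against 15.4% of all named genes. These were 2 lower and 0 higher, although the median of the targets was 0.10. This balance turned with Benjamini-Hochberg adjustment, which called 9 higher and 5 lower. TFRC, the transferrin receptor, was at 10.49, 10.80 and 10.77 in KD, between 11.94 and 12.01 in SCR, and between 11.10 and 11.22 in WT. It passed against SCR (-1.29, adjusted p = 0.00277) but not against WT (-0.46, adjusted p = 1). HSPD1, a mitochondrial chaperone, differed by -0.63 (adjusted p = 0.0204), a call lost without any 1 of the 9 arrays (adjusted p 0.073 to 0.232).

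SPOP on chromosome 17 was somewhat higher in KD. It was measured at 9.58, 9.52 and 9.49 in KD, at 9.03, 9.01 and 9.03 in SCR, and at 8.99, 9.05 and 9.01 in WT. Every KD array lay above every control array, and SCR and WT overlapped. The difference from SCR was 0.51 ± 0.05 (SE, 95% interval 0.41 to 0.61), or 1.42-fold, and missed the threshold after adjustment (adjusted p = 0.0639). From WT it was also 0.51 (adjusted p = 0.0606). Of its 6 nearest measured genes 0 passed by limma (5 at an unadjusted p under 0.05, 5 with Benjamini-Hochberg adjustment), and they differed from SCR by -0.39 to 0.29. The 50-gene window around SPOP had a median of 0.08, with 6 genes higher and 4 lower. With arrays centred on their medians or with dim transcripts left out, SPOP passed against SCR (adjusted p 0.0478 and 0.0131).

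The ligase that SPOP serves and its substrates were measured as RNA only, while SPOP acts on the stability of the proteins. Of 22 measured genes, 2 were higher in KD than in SCR and 2 lower (18.2% called, against 15.4% of all named genes). Their median was 0.01. CUL3, the scaffold of the ligase, differed by -0.10, which did not pass. ATF2, a transcription factor, was at 8.35, 8.28 and 8.26 in KD and between 7.31 and 7.33 in SCR (0.97, adjusted p = 0.000279). TRIM24, a chromatin reader and coactivator, was at 8.28, 8.31 and 8.31 in KD and at 9.07, 9.11 and 9.16 in SCR (-0.81, adjusted p = 0.000883). GLI2, a Hedgehog factor (0.65, adjusted p = 0.0175), lost its call without any 1 KD array, any 1 SCR array or WT1 (adjusted p 0.0814 to 0.223), and PDPK1, a kinase upstream of AKT (-0.50, adjusted p = 0.0464), without any 1 of the 9 arrays (0.15 to 0.602).

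CHD1 on chromosome 5 was measured at 8.72, 8.78 and 8.78 in KD, at 8.12, 8.20 and 8.29 in SCR, and at 8.18, 8.27 and 8.17 in WT. The KD arrays lay above all control arrays, and the controls overlapped. KD exceeded SCR by 0.56 ± 0.06 (SE, 95% interval 0.43 to 0.69), or 1.47-fold, which did not pass (adjusted p = 0.235), and the difference from WT was 0.55 (adjusted p = 0.254). Genes around it did not share this direction. The 6 nearest measured genes differed from SCR by -0.46 to -0.07, and 0 passed by limma (4 at an unadjusted p under 0.05, 4 with Benjamini-Hochberg adjustment), and in the 50-gene window 16 were lower and 4 higher, with a median of -0.36 against -0.11 for the 388 such genes of chromosome 5. The 17 measured CHD paralogues and elongation factors had a median of 0.06. Among them 1 was higher and 0 lower (5.88% called, against 15.4% of all named genes). That gene was CHD8, a remodeller that restrains WNT signalling (0.81, adjusted p = 0.0173), and its call was lost without any 1 array other than KD1 (adjusted p 0.073 to 0.203).

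BRCA2 itself was not analysed here, but 19 genes of homologous recombination that work with it were measured. Of these, 1 was higher in KD than in SCR and 1 lower, with a median of -0.01. PALB2, which links the BRCA1 and BRCA2 proteins, was at 7.55, 7.59 and 7.61 in KD and at 6.90, 6.89 and 6.87 in SCR (0.70, adjusted p = 0.00233). FANCI, of the Fanconi anaemia pathway, differed by -0.58 (adjusted p = 0.0325), a call lost without any 1 of the 9 arrays (adjusted p 0.0879 to 0.396). Of 18 other genes altered in prostate cancer, 6 were lower in KD and 0 higher (33.3% called, against 15.4% of all named genes). Their median was -0.31. FOXA1, a pioneer factor of luminal cells, was at 8.11, 8.14 and 8.02 in KD and at 10.28, 10.32 and 10.29 in SCR (-2.21, adjusted p = 1.45e-07). ZBTB16, a transcriptional repressor, was at 6.65, 6.68 and 6.85 in KD and at 8.94, 8.94 and 8.91 in SCR (-2.20, adjusted p = 2.27e-06).

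**Figure D4:**
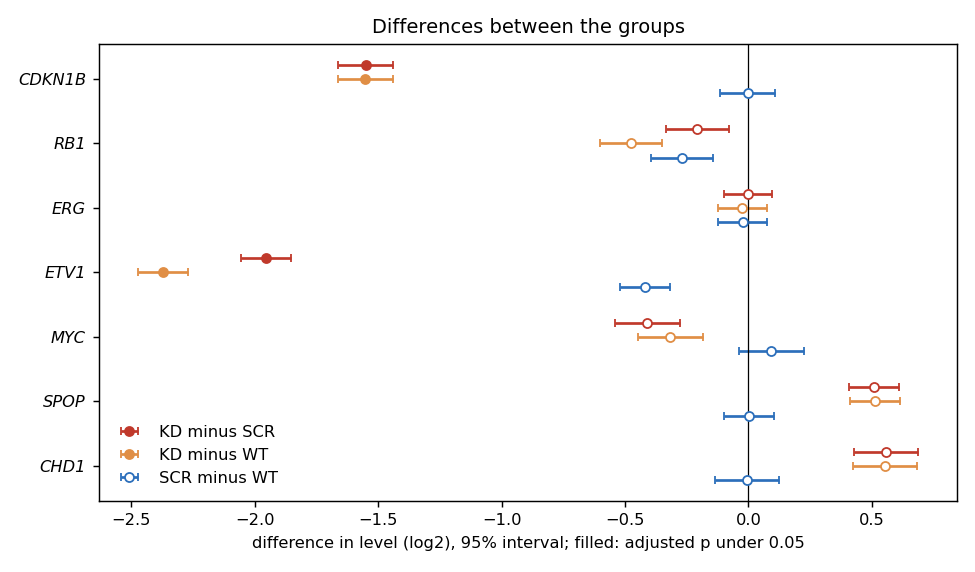
Differences in level between the groups (log2) for the 7 members, with 95% intervals from limma and filled points for those past the test. CDKN1B and ETV1 are the members with filled points, SPOP and CHD1 lie near 0.5 in both comparisons with KD, and SCR minus WT is displaced from 0 for RB1 and ETV1.

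The scramble control and the wildtype cells, which both carry SSX2 RNA, can be compared without the KD arrays. They differ in transfection, and technical replicates do not measure how far separate cultures vary. By limma with the Bonferroni adjustment 0 of 7 members passed between SCR and WT, where 0.45% of named genes did. RB1 and ETV1, 2 of 7, had an unadjusted p under 0.05, and the methods' ANOVA with Bonferroni adjustment called 0. Over the 17 gene lists described here, ELF5 in the ETS family was the 1 gene called between the controls. SCR and WT did not overlap in 3 of 7 members, RB1, ETV1 and MYC, and in 25.5% of named genes. The differences ranged from -0.42 in ETV1 to 0.09 in MYC. For SPOP and CHD1 they were 0.003 and -0.005.

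Genes whose pattern over the 9 arrays was most like that of the 2 called members were found by the root mean square difference of log2 values centred per gene. For ETV1 these were NLGN1 (0.034), FAM110B (0.065) and SLIT1 (0.069), whose SCR and WT arrays also did not overlap, with differences of SCR from WT of -0.40, -0.35 and -0.47. For CDKN1B they were TMEM231 (0.036), HOOK1 (0.038) and PHF3 (0.038). This likeness is a description over 9 arrays of 3 groups.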

How the data were processed

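RNA of 9 arrays in 3 groups was analysed. The deposited values are log2 intensities that the authors obtained by RMA, with Affymetrix Expression Console and Transcriptome Analysis Console 3.0 named in the processing notes, and they were not transformed again. Of 70523 probe sets, 67528 transcripts were tested and 2995 others left out. The array annotation names 1 gene for 23781 transcripts, several for 1543 and none for 42204, and a gene stands for its brightest transcript named for it alone. The groups were compared in limma 3.58.1 under R 4.3.3, in a model of group means on all arrays (lmFit and eBayes, 6 residual and 3.34 prior degrees of freedom), with a Bonferroni adjustment over the transcripts tested, as the methods use. Fits were tested on simulated data. Named genes are the members, SSX2, up to 2 rises and 2 falls past the test in each of 17 lists, neighbours past the test, the 3 genes most like each called member, and markers. Exceptions are stated. Members and lists were chosen with earlier results of these data known. Gene order, for 22167 genes, and promoters came from RefSeq GRCh38.p14. Alternatives changed the adjustment, scaling, filter, samples and variance. The number of arrays limits the precision.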

Additional observations from a re-analysis of the deposited data

How the results depend on the processing

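The lower CDKN1B and ETV1 in KD kept their direction under every alternative run, and leaving out 1 array at a time gave 2 to 2 called members against SCR, 2 to 2 against WT and 0 to 0 between SCR and WT. With Benjamini-Hochberg adjustment the members called were 6, 6 and 2 in these comparisons, with the methods' ANOVA and that adjustment 5, 6 and 1, and with a trended and robust variance 4 against SCR and 4 against WT. The share of all named genes called under these settings is not given here. Counts of members and of list genes under them therefore do not set these genes apart from the rest. The methods' ANOVA with Bonferroni adjustment called 1 against WT, since CDKN1B missed the threshold (adjusted p = 0.279), and against SCR 0 of the 25 ETS factors, E2F targets, ETS fusion partners, genes between ERG and TMPRSS2, fibroblast markers and the lists of p27, MYC, SPOP, CHD1 and BRCA2, 1 each of the RB and E2F core, the genes of ERG-positive tumours, the other altered genes and the leukocyte markers, 2 of the 10 luminal and 11 of the 17 non-luminal markers. It ended, among others, the calls of CREBL2 (adjusted p = 0.0583), DUSP16 (0.483), ETS2 (0.215), ZBTB16 (0.292), MYBL2 (0.455), KLK2 (0.526), TMPRSS2 (1) and TFRC (1). The cause was not tested. Benjamini-Hochberg adjustment called, higher and lower against SCR, 7 and 10 ETS factors, 8 and 12 of the RB and E2F core, 8 and 7 E2F targets, 5 and 5 genes of ERG-positive tumours, 4 and 5 between ERG and TMPRSS2, 0 and 6 fusion partners, 6 and 7 genes of the SPOP list, 8 and 4 of the CHD list, 7 and 7 of the BRCA2 list, 4 and 11 other altered genes, 0 and 5 fibroblast markers, 1 and 0 leukocyte markers, 0 and 7 luminal and 17 and 0 non-luminal markers. Arrays of the same number in different groups had correlations of deviations from -0.02 to 0.16. Pairs of different numbers were not compared, so whether array numbers pair the arrays was not tested. With the array number as a replicate block 2, 2 and 0 members were called. ERG stood low, with group means of 4.61 to 4.63. This was above the background set medians of 3.60 to 3.81, and left limited room to measure a lower level. The brightest background set on each array reached 11.93 to 12.30, so the medians do not show that ERG was detected. The same holds for ETV1 in KD, with a mean of 5.05.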
